A study of Drosophila melanogaster with 12 samples.

Results

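The genes described are the translation initiation and elongation factors of Drosophila melanogaster, measured in S2 cells treated with TMPyP4 or with the solvent DMSO. They were chosen by name alone, as every gene of the count table whose FlyBase symbol starts with eIF or eEF, with eIF6 left out. The rule found 51 genes among 17494 in the table. They comprised 9 factors of start codon recognition and initiator tRNA delivery, 5 subunits of the exchange factor eIF2B, 16 subunits of eIF3 or their paralogues, 13 cap-binding (eIF4) factors and 8 elongation factors. A filter on low counts kept 7328 genes for testing, among them 42 of the 51 factors.

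Translation of most messenger RNAs begins when the eIF4 factors bind the cap at the 5′ end and a small ribosomal subunit, carrying eIF3, eIF1, eIF1A and initiator tRNA bound to eIF2, is loaded and scans to a start codon. eIF2B then recharges eIF2 with GTP for another round, and phosphorylation of eIF2alpha, which blocks that recharging, is a conserved brake on protein synthesis under stress. In elongation, eEF1alpha delivers aminoacyl-tRNAs, the eEF1 exchange complex recharges it, eEF2 moves the ribosome along and eEF5, the protein also called eIF5A, aids peptide bond formation at slow sequences.

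S2 is an established hemocyte-like line of embryonic origin, and TMPyP4 is a cationic porphyrin that binds G-quadruplexes, four-stranded folds of guanine-rich nucleic acid. The 4 groups were S2 cells given the solvent DMSO alone and S2 cells given TMPyP4 at 25, 50 or 100 µmol/L, each sampled after 48 h as 3 libraries of polyadenylated RNA, 12 in all. The DMSO group carries a label of 100 µg/L whose meaning is not stated. The labels describe the RNA as prepared in a mixture with zebrafish RNA, name no separate cultures for the replicates, and mention no gene targeted in any group. The p-values therefore measure the spread between these libraries, which may be technical.

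Gene counts per library ran between 4669194 and 9662038. The line was checked against 10 hemocyte markers. Of these, 8 averaged at least 1 CPM (counts scaled to a common library size) over the 12 libraries, while NimC1 and He stayed near 0. The summed level of the 10 markers was lower in treated cells, with 2150 to 2480 CPM in DMSO, 1380 to 1540 CPM at 25 µmol/L, 1140 to 1760 CPM at 50 µmol/L and 1090 to 1250 CPM at 100 µmol/L. No neuron, muscle, fat body or ovarian follicle marker averaged 1 CPM over the 12 libraries. Of the germ line markers aub averaged 104 CPM and bam 181 CPM over the 12 libraries, with vas near 0. The libraries also differed in how strongly counts rose with the exonic length of a gene. This length slope, of log2 CPM on log2 exonic bases relative to each gene's mean, was 0.266, 0.0541 and 0.155 in the DMSO libraries, -0.032, -0.000738 and -0.00319 in those given 25 µmol/L, 0.0196, -0.218 and -0.108 in those given 50 µmol/L, and 0.028, -0.0497 and -0.111 in those given 100 µmol/L. All 3 DMSO slopes lay above all 9 TMPyP4 slopes. The part that this slope or the hemocyte markers play in the differences below was not tested, but each call was repeated with a per-library offset for exonic length.

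Together the 51 factors took a nearly constant share of all gene counts. The share was 3.58 ± 0.0671% in DMSO, 3.47 ± 0.0544% at 25 µmol/L, 3.47 ± 0.0816% at 50 µmol/L and 3.54 ± 0.0512% at 100 µmol/L (SD, n = 3 each), and the 12 libraries spanned 3.38 to 3.65%. The elongation factors alone made up 1.97 to 2.19% of a library, the eIF3 subunits 0.817 to 0.976%, the start codon and tRNA factors 0.284 to 0.316%, the eIF4 factors 0.169 to 0.212% and eIF2B 0.0469 to 0.0582%. In bulk RNA such as this, fewer cells holding a transcript and less transcript per cell cannot be told apart.

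Per length, 4 elongation factors stood above all others. In CPM per kilobase of exon, eEF1alpha1 stood at 2797 ± 148 in DMSO, eEF2 at 2415 ± 240.4, eEF1gamma, a scaffold of the eEF1 exchange complex, at 2260 ± 81.1 and its catalytic partner eEF1beta at 2005 ± 163 (SD, n = 3). These 4 levels overlap between neighbours within about their spread. The small eIF3 subunit eIF3k followed at 1020 ± 119, then eEF5 at 748 ± 77.3. Most other core factors lay between eIF3e at 733 ± 98.0 and eIF2Bepsilon, the catalytic subunit of the exchange factor, at 29.1 ± 2.61. The cap-binding group was split. Its RNA helicase eIF4A stood at 607 ± 15.2 and its cap-binding protein eIF4E1 at 132 ± 8.51, while the scaffold eIF4G1 stood at 6.76 ± 2.50 and the helicase cofactor eIF4B at 1.69 ± 0.429. The paralogue eIF4G2 and eIF4EHP, a cap-binding repressor of translation, were lower still at 1.00 ± 0.532 and 0.907 ± 0.310. The elongation paralogue eEF1alpha2 (1.15 ± 0.288) and eEFSec, the factor for selenocysteine (3.75 ± 0.421), were likewise at the low end of the order. eEF1alpha1 and eEF1alpha2 are close copies, and since the sources do not say how reads matching both were counted, the split between them is uncertain.

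**Figure D1:**
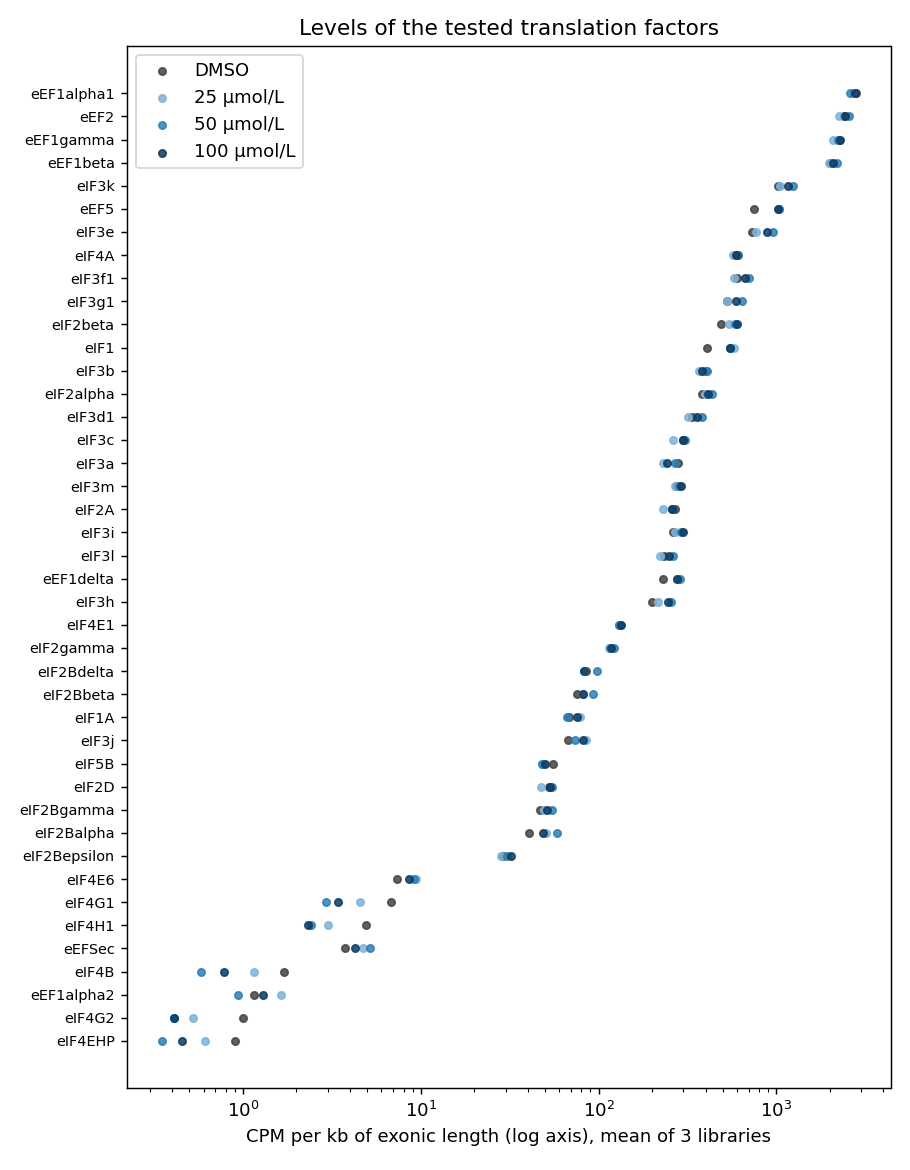
Level of each of the 42 tested factors in CPM per kilobase of exonic length (log axis), as the mean of 3 libraries per group, with DMSO in grey and TMPyP4 at 25, 50 and 100 µmol/L in deepening blue. The order from eEF1alpha1 at 2797 to eIF4EHP at 0.907 in DMSO spans over 3 decades, and the groups separate most for the eIF4 factors at the bottom.

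The 9 factors that did not pass the filter were eIF3d2, eIF3f2, eIF3g2, eIF4E3, eIF4E4, eIF4E5, eIF4E7, eIF4H2 and eIF5. Their highest count in any library was 3, and 4 of them, eIF3g2, eIF4E4, eIF4E5 and eIF5, had 0 counts in all 12 libraries, which allows up to 0.0344 CPM over the 12 (3 counts of the total, for counting error only). All but eIF5 carry the names of paralogues of a core factor. eIF5, the activator of GTP hydrolysis by eIF2 that is needed for start codon recognition, is an exception among them. In the BDGP6.54 annotation 2588 of its 3203 exonic bases (80.8%) are shared with the gene CG46312 on the same strand, which was also at 0. The part of that overlap in the count of 0 was not tested, and 0 counts are therefore not read here as absence of eIF5 RNA. Smaller same-strand overlaps touched eIF2gamma with Su(var)3-9 (16% of its exonic bases), eIF4G2 with CG33111 (8.56%), eIF4EHP with Syx1A (6.96%) and eIF4A with a copy of the transposable element blood (1.49%). Since the use of strand in counting is not given in the sources used here, overlaps with a gene on the other strand matter too, and the widest were eIF3h with senju (16.8%) and eIF2alpha with rngo (12.6%). The counts of these factors are uncertain to that extent.

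Few of the factors differed between TMPyP4 and DMSO libraries, and the 4 called higher were small genes. At 25 µmol/L 1 of 42 tested factors passed an adjusted p of 0.05 in edgeR's quasi-likelihood test (eIF1, higher), or 2.38%, against 1.66% of all 7328 genes. At 50 µmol/L 3 of 42 passed (eIF1, eIF2Balpha and eEF5, all higher), or 7.14%, against 6.85% of all genes. At 100 µmol/L 1 of 42 passed (eEF5, higher), or 2.38%, against 5.17% of all genes. These shares lie near or below those of all genes and are no result about the factors as a group. A plain criterion is that the 3 treated libraries lie wholly outside the 3 DMSO libraries. By it, 4 of 42 factors were higher at 25 µmol/L, against 10.8% of all genes, and 2 of 42 lower, against 8.62%. At the middle concentration 11 of 42 were higher, against 12.8%, and 4 of 42 lower, against 13.0%. At the highest concentration 10 of 42 were higher, against 13.7%, and 6 of 42 lower, against 13.4%. The shares of factors higher at 50 and 100 µmol/L thus lay above those of all genes, and the other shares lay near or below theirs. The part of gene length in this was not tested. With the mean of the 3 TMPyP4 groups set against DMSO, which uses all 9 treated libraries, 6 of 42 passed, or 14.3%, against 9.83% of all genes. In that contrast 4 were higher (eIF1, eIF2Balpha, eEF5 and eEF1delta), or 9.52%, against 3.00% of all genes, and 2 were lower (eIF4G1 and eIF4G2), or 4.76%, against 6.82%. With upper-quartile scaling the split was 4 higher and 0 lower. Without the filter on low counts, lower calls also appeared at single concentrations, with 2 higher and 2 lower at 25, 4 and 4 at 50, and 2 and 3 at 100 µmol/L, every lower call being an eIF4 factor. Single libraries moved the counts as well. Without 25 µmol/L replicate 1 edgeR called 3 factors at 25 µmol/L, and without 50 µmol/L replicate 1 it called 7 higher and 4 lower at 50 µmol/L. Without DMSO replicate 1 or DMSO replicate 3 it called 0 at each concentration and in the mean contrast. With a block for the runs of numbers in the sample titles, whose meaning is not stated, edgeR called 0 factors in each of these 4 contrasts. The median log2 fold change of the 42 factors was -0.03 at 25, 0.10 at 50 and 0.09 at 100 µmol/L, beside medians of 0.01, 0.02 and 0.01 over all tested genes. All 4 of these contrasts use the same 3 DMSO libraries, so their values are not independent of each other.

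**Figure D2:**
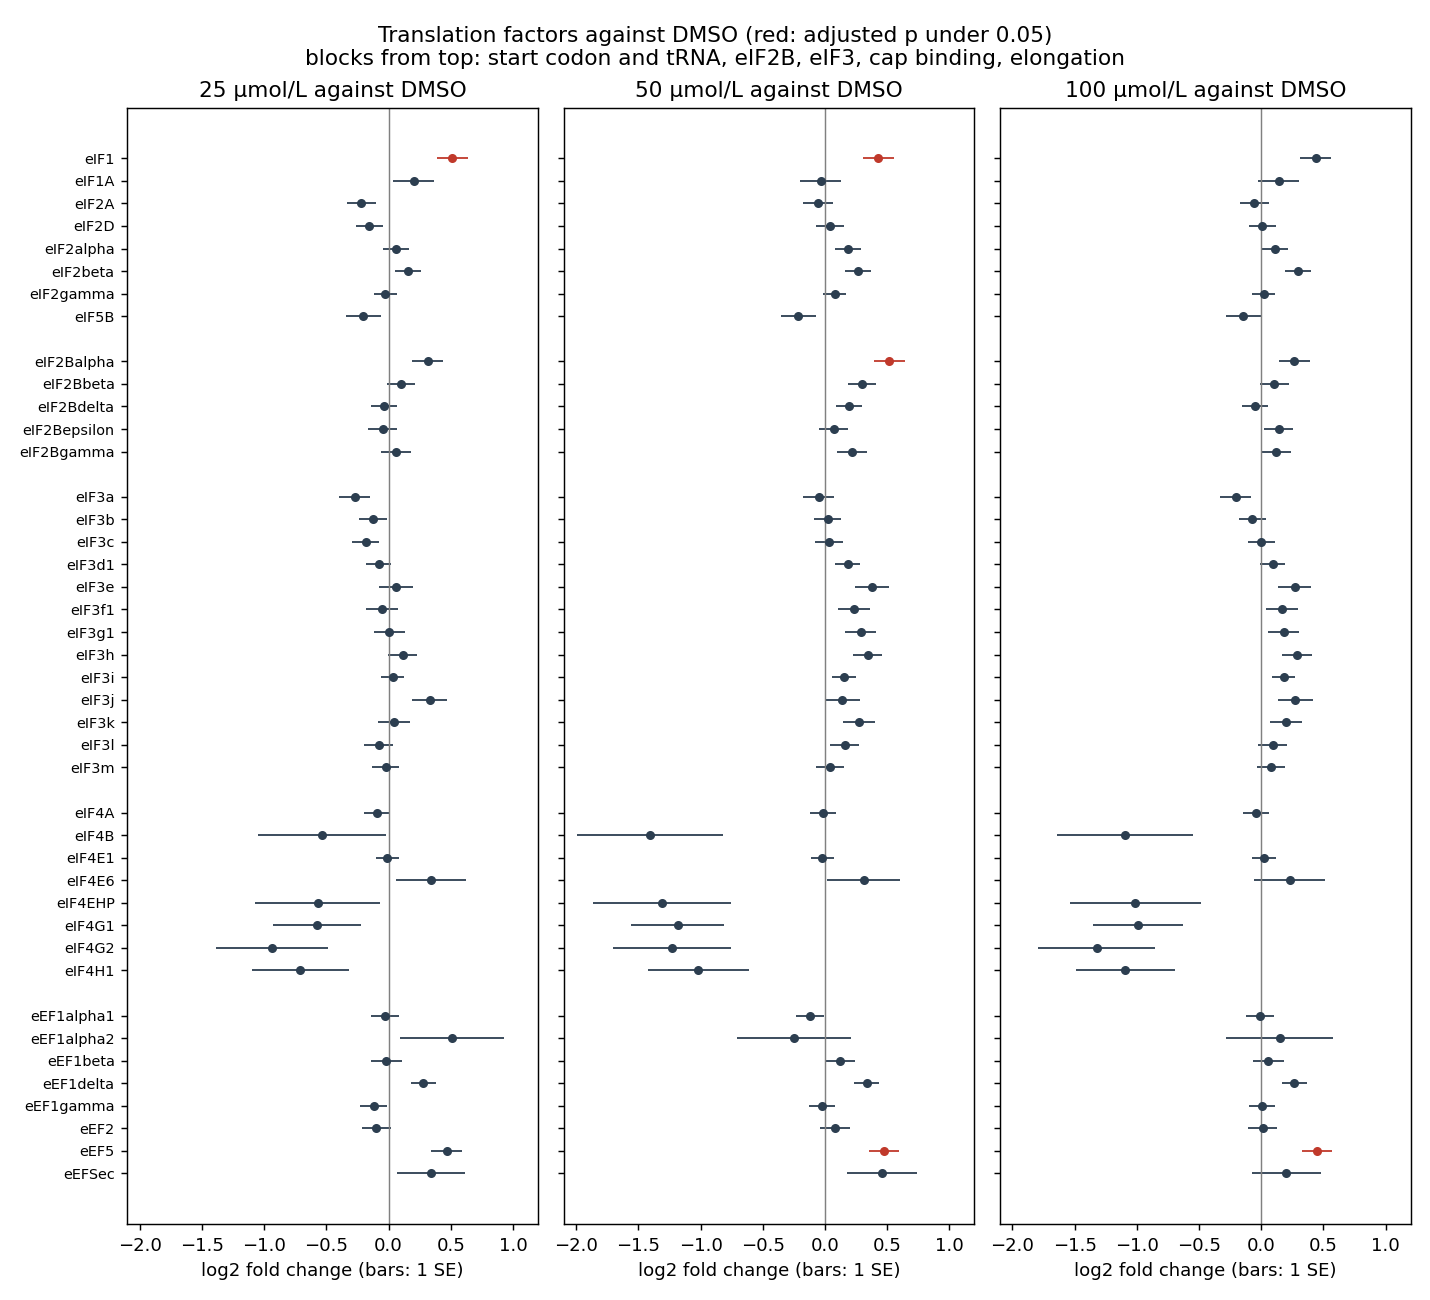
Log2 fold change against DMSO (bars: 1 SE) of the 42 tested factors at 25, 50 and 100 µmol/L TMPyP4, in blocks by role from start codon factors at the top to elongation factors at the bottom, with red points for an adjusted p under 0.05. Most points lie within 0.3 of 0, and the eIF4 scaffolds and cofactors lie between -0.54 and -1.40 with wide bars.

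Among the factors of start codon selection, only eIF1, which keeps the scanning ribosome from stopping at poor start sites, passed the test. eIF1 (FBgn0035423, chromosome 3L, 3223341 to 3224650, plus strand) had 275, 298 and 256 CPM in DMSO, 322, 456 and 406 CPM at 25 µmol/L, 374, 409 and 333 CPM at 50 µmol/L, and 349.6, 403 and 370.3 CPM at 100 µmol/L. Every treated library lay above every DMSO library. The log2 fold change was 0.51 (SE 0.124, edgeR adjusted p = 0.0462) at 25, 0.43 (SE 0.125, adjusted p = 0.0489) at 50 and 0.44 (SE 0.124, adjusted p = 0.0506) at 100 µmol/L, with 0.46 (SE 0.104, adjusted p = 0.0111) for the mean of the treated groups. Of the 42 tested factors, 4 (9.52%) had no overlap between all 9 treated and all 3 DMSO libraries in the higher direction, against 3.74% of all genes. These were the same 4 that were called higher. With the offset for length the eIF1 mean difference was 0.26 (adjusted p = 0.132). The mean call was also lost without DMSO replicate 1 or DMSO replicate 3 (adjusted p up to 0.0786), and the call at 25 µmol/L held in 1 of 6 fits that left out a library, that without 25 µmol/L replicate 1. The calls at 25 and 50 µmol/L were lost with RLE scaling (adjusted p = 0.0584 and 0.0524) and with upper-quartile scaling (adjusted p = 0.0527 and 0.0629). At 50 µmol/L the call of eIF1 was lost without DMSO replicates 1 or 3 or 50 µmol/L replicates 2 or 3 (adjusted p up to 0.201), and so were those of eIF2Balpha (up to 0.137) and eEF5 (up to 0.144).

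The partners of eIF1 did not pass the test. eIF1A, which binds beside it on the small subunit, had a mean log2 difference of 0.10 (95% interval -0.18 to 0.39). The 3 subunits of eIF2 gave 0.12 for the regulated subunit eIF2alpha (-0.06 to 0.30), 0.24 for eIF2beta (0.06 to 0.42, edgeR adjusted p = 0.0809) and 0.02 for eIF2gamma, the subunit that binds GTP and tRNA (-0.14 to 0.18). eIF2beta came closest, with 598, 539 and 511 CPM in DMSO, 641, 570.1 and 625 CPM at 25 µmol/L, 641, 717 and 624 CPM at 50 µmol/L and 653, 711 and 659.6 CPM at 100 µmol/L. Its treated libraries overlapped DMSO at 25 µmol/L and not at 50 or 100 µmol/L. eIF5B, which joins the large subunit at the end of initiation and is the longest of this group at 4410 bases, had -0.19 (-0.43 to 0.05).

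**Figure D3:**
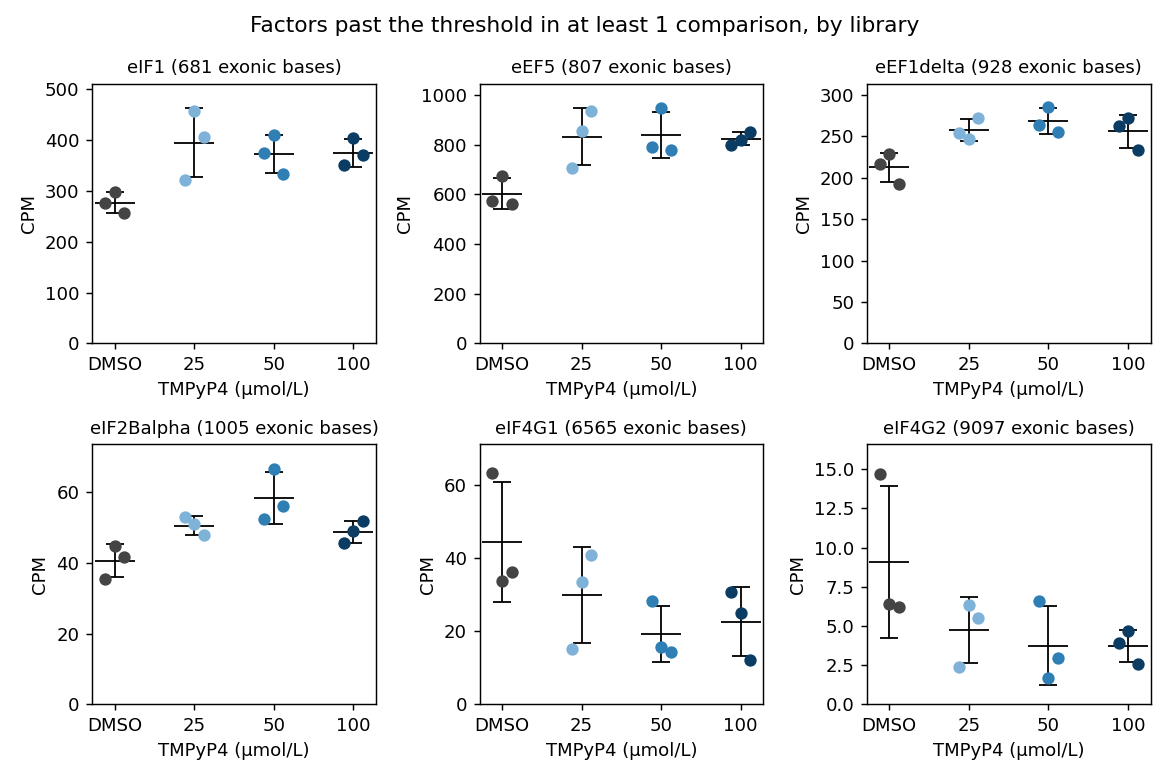
CPM in each library of the 6 factors past the threshold in at least 1 comparison, ordered by exonic length, with points for the 3 libraries of DMSO and of each TMPyP4 concentration, a horizontal mark for the mean and bars of 1 SD. In the 4 shorter genes every treated library lies above every DMSO library, and in eIF4G1 and eIF4G2 DMSO replicate 1 stands highest at 63.2 and 14.7 CPM while other libraries overlap.

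Within the eIF2B exchange factor, eIF2Balpha, a regulatory subunit that senses phosphorylated eIF2, was the subunit called higher. eIF2Balpha (FBgn0039726, chromosome 3R, 29934582 to 29935888, minus strand) had 35.5, 44.7 and 41.7 CPM in DMSO, 52.9, 50.9 and 47.8 CPM at 25 µmol/L, 52.4, 66.5 and 56.2 CPM at 50 µmol/L, and 45.6, 48.9 and 51.8 CPM at 100 µmol/L. No treated library overlapped DMSO, although the gap between 44.7 CPM in DMSO replicate 2 and 45.6 CPM at 100 µmol/L replicate 1 was small. The log2 fold change was 0.52 (SE 0.127, edgeR adjusted p = 0.0251) at 50 µmol/L and 0.37 (SE 0.104, adjusted p = 0.0351) in the mean contrast, and 0.32 and 0.27 at 25 and 100 µmol/L, where the test was not passed. With the length offset the mean difference was 0.21 (adjusted p = 0.173). The mean call held in 6 of 12 fits that each left out a library and was lost without DMSO replicates 1 or 3, 25 µmol/L replicate 2, 50 µmol/L replicate 2, or 100 µmol/L replicates 2 or 3 (adjusted p up to 0.238). The other 4 subunits gave mean differences of 0.17 (eIF2Bbeta), 0.13 (eIF2Bgamma), 0.05 (eIF2Bepsilon) and 0.04 (eIF2Bdelta), none past the threshold. At 50 µmol/L 3 of the 5 subunits, eIF2Balpha, eIF2Bbeta and eIF2Bdelta, lay wholly above DMSO, where 12.8% of all genes did.

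The eIF3 complex, the scaffold that carries the small subunit to the messenger, was measured in 13 subunits, and 0 of them passed the test in any comparison with DMSO, by edgeR or by DESeq2. By edgeR 2, 3, 1 and 2 of the 13 had an unadjusted p under 0.05 at 25, 50 and 100 µmol/L and in the mean contrast, beside 15.6%, 26.2%, 21.8% and 25.5% of all tested genes. In the mean contrast all 13 estimates lay within 0.3 of 0 on the log2 scale. The count of 0 did not hold under every setting. At 50 µmol/L eIF3e (0.48, adjusted p = 0.026), eIF3g1 (0.39, adjusted p = 0.0434) and eIF3h (0.43, adjusted p = 0.0277) were called higher without 50 µmol/L replicate 1, and eIF3e without the filter (0.37, adjusted p = 0.045). At 25 µmol/L eIF3a was called lower without 25 µmol/L replicate 1 (-0.45, adjusted p = 0.0392). The core subunits eIF3a, eIF3b and eIF3c had mean differences of -0.18 (95% interval -0.39 to 0.04), -0.06 (-0.25 to 0.13) and -0.05 (-0.24 to 0.14). The highest was eIF3j, a loosely bound subunit, at 0.25 (SE 0.118), close to eIF3h at 0.25 (SE 0.0989). At 50 µmol/L eIF3e showed 1243, 1584 and 1525 CPM against 944, 1183 and 1217 CPM in DMSO, without overlap, at 0.38 (SE 0.134, edgeR adjusted p = 0.0918). Messenger levels of the subunits were unequal before treatment. In DMSO they spanned 67.2 CPM per kilobase for eIF3j to 1020 for eIF3k, a 15.2-fold range about a median of 298.5.

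Of the 8 tested cap-binding factors, eIF4G1 and eIF4G2 were lower in the mean contrast and the other 6 did not pass the test. eIF4E1, the main cap-binding protein, had 316, 286 and 281 CPM in DMSO, 279, 277 and 321 CPM at 25 µmol/L, 276, 304 and 291 CPM at 50 µmol/L and 290.2, 302 and 305 CPM at 100 µmol/L, and its groups overlapped fully. Its mean difference had a 95% interval of -0.17 to 0.16. The helicase eIF4A spanned 1373 to 1687 CPM over the 12 libraries, with a mean difference of -0.05 (-0.23 to 0.13).

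The scaffold eIF4G1, which bridges the cap-binding protein and eIF3, was lower in the mean contrast. eIF4G1 (FBgn0023213, chromosome 4, 915297 to 930715, minus strand) had 63.2, 33.8 and 36.1 CPM in DMSO, 15.2, 33.4 and 40.9 CPM at 25 µmol/L, 28.1, 15.6 and 14.3 CPM at 50 µmol/L, and 30.6, 24.9 and 12.1 CPM at 100 µmol/L. The treated libraries at 50 and 100 µmol/L lay below all DMSO libraries, and at 25 µmol/L they overlapped them. The mean log2 difference was -0.92 (SE 0.280, edgeR adjusted p = 0.0476), and at single concentrations it was -0.57, -1.18 and -0.99 with adjusted p of 0.473, 0.0621 and 0.119. Fitted with the 50 µmol/L and DMSO libraries alone, eIF4G1 was called lower (-1.19, adjusted p = 0.0462), the single factor called in that fit. The mean call was kept without the filter on low counts (-0.94, edgeR adjusted p = 7.89e-10) and with RLE scaling (-0.94, adjusted p = 0.0446). The mean call was lost with DESeq2 (-0.94, adjusted p = 0.111), with the length offset (-0.51, adjusted p = 0.262) and with upper-quartile scaling (-0.91, adjusted p = 0.0615). It held in 5 of 12 fits that left out a library and was lost without DMSO replicates 1 or 3, 25 µmol/L replicate 2, 50 µmol/L replicates 2 or 3, or 100 µmol/L replicates 2 or 3, over a range of -1.09 to -0.57.

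eIF4G2, its paralogue, was also lower in the mean contrast and stood at lower levels. eIF4G2 (FBgn0260634, chromosome 3R, 23808285 to 23819237, minus strand) had 14.7, 6.41 and 6.20 CPM in DMSO, 2.39, 6.35 and 5.52 CPM at 25 µmol/L, 6.59, 1.71 and 2.93 CPM at 50 µmol/L, and 3.89, 4.65 and 2.60 CPM at 100 µmol/L. DMSO replicate 1 stood above every other library, and without it the mean difference was -0.63 (adjusted p = 0.453). The mean difference over all libraries was -1.16 (SE 0.353, edgeR adjusted p = 0.0461), and -0.58 (adjusted p = 0.315) with the length offset. The call held in 3 of 12 fits that left out a library, those without DMSO replicate 2, 25 µmol/L replicate 2 or 50 µmol/L replicate 1. It was lost with upper-quartile scaling (-1.16, adjusted p = 0.056). The call was kept without the filter (-1.185, edgeR adjusted p = 0.000133), with RLE scaling (adjusted p = 0.0437) and with DESeq2 (adjusted p = 0.0245).

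The remaining weakly counted eIF4 factors were not called by edgeR with all libraries and the filter. eIF4H1, an eIF4A cofactor, had 31.5, 18.1 and 16.0 CPM in DMSO, 7.29, 13.8 and 18.9 CPM at 25 µmol/L, 15.6, 8.28 and 8.05 CPM at 50 µmol/L and 15.8, 10.1 and 4.98 CPM at 100 µmol/L. Its libraries overlapped DMSO at 25 µmol/L and not at 50 or 100 µmol/L. The mean difference was -0.94 (SE 0.306, edgeR adjusted p = 0.0619), and DESeq2 called it at -0.96 (adjusted p = 0.0316). Without the filter edgeR called eIF4H1 (-0.96, adjusted p = 4.06e-06) and eIF4EHP (-0.98, adjusted p = 0.0156) in the mean contrast, and without 50 µmol/L replicate 1 it called eIF4H1 (-1.07, adjusted p = 0.0196) and eIF4B (-1.42, adjusted p = 0.0295). It also called eIF4H1 without 25 µmol/L replicate 3 or 100 µmol/L replicate 1. eIF4EHP had a mean difference of -0.96 (SE 0.407, adjusted p = 0.146). eIF4B, at most 4.19 CPM in any library and 0 in 50 µmol/L replicate 2, had -1.01 (SE 0.421, adjusted p = 0.141). The paralogue eIF4E6 lay on the other side at 0.29 (SE 0.235, adjusted p = 0.465). By sign, 7 of the 8 tested cap-binding factors were below 0 and 1 above in the mean contrast. The intervals of eIF4A and eIF4E1, counted as below 0, included 0. The median of the 8 was -0.93, or -0.54 with the length offset, against 0.02 over all tested genes. Of the 8, eIF4G1, eIF4G2, eIF4EHP and eIF4H1 have 4000 bases and over, where the median of all tested genes was -0.36.

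Among elongation factors, eEF5 and eEF1delta were higher under TMPyP4 and the abundant members were level. eEF5 (FBgn0285952, chromosome 2R, 24057798 to 24059483, plus strand) had 575, 675 and 560.2 CPM in DMSO, 708, 856 and 935 CPM at 25 µmol/L, 793, 948 and 779.9 CPM at 50 µmol/L, and 801, 819.7 and 852 CPM at 100 µmol/L. Every treated library lay above every DMSO library. The log2 fold change was 0.47 (SE 0.121, edgeR adjusted p = 0.0675) at 25, 0.48 (SE 0.121, adjusted p = 0.0291) at 50 and 0.45 (SE 0.121, adjusted p = 0.0404) at 100 µmol/L, and 0.46 (SE 0.102, adjusted p = 0.00926) in the mean contrast. In this fit it was the one factor of the 42 that also passed an adjusted p of 0.01 in the mean contrast. Without the filter eIF1 (adjusted p = 0.000328), eIF4G1 and eIF4G2 passed 0.01 too, and with DESeq2 eIF1 did (adjusted p = 0.00101). With RLE or upper-quartile scaling the edgeR adjusted p of eEF5 was 0.0108 and 0.0113. With the length offset the mean difference was 0.29 (adjusted p = 0.0546), and without DMSO replicate 1 or DMSO replicate 3 the adjusted p rose above the threshold, to at most 0.0694. The call at 100 µmol/L held in 1 of 6 fits that left out a library, that without DMSO replicate 2 (adjusted p up to 0.171 in the others).

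eEF1delta, a subunit of the eEF1 exchange complex, changed less. eEF1delta (FBgn0032198, chromosome 2L, 10232507 to 10234450, plus strand) had 216, 228 and 193 CPM in DMSO, 254, 247 and 273 CPM at 25 µmol/L, 263, 286 and 255 CPM at 50 µmol/L, and 262, 272 and 233 CPM at 100 µmol/L. The groups did not overlap, and the mean log2 difference was 0.29 (SE 0.0817, edgeR adjusted p = 0.0309), or 0.13 (adjusted p = 0.418) with the length offset. The call was lost without DMSO replicates 1 or 3, 25 µmol/L replicate 3, 50 µmol/L replicate 2 or 100 µmol/L replicate 2 (adjusted p up to 0.192), and without the filter on low counts (adjusted p = 0.0538). Of its partners, eEF1beta had a mean difference of 0.05 (95% interval -0.16 to 0.27) and eEF1gamma -0.05 (-0.23 to 0.13). eEF1alpha1 had -0.05 (-0.25 to 0.14), and the interval for eEF2 was -0.21 to 0.20. The weakly counted eEF1alpha2 had 0.14 (-0.61 to 0.88) and eEFSec 0.33 (-0.15 to 0.81), intervals that do not exclude changes up to those bounds.

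The differences were ordered by the exonic length of the factors. Across the 42 tested factors the Spearman correlation of the log2 fold change with exonic length was -0.778 at 25, -0.822 at 50 and -0.836 at 100 µmol/L, and -0.857 in the mean contrast, as a description over genes that share the same libraries. Over 7263 tested genes with a known length it was -0.509, -0.640, -0.509 and -0.610. The 6 factors under 1000 bases (eEF1beta, eEF1delta, eEF5, eIF1, eIF3k and eIF4E6) had a median mean-contrast difference of 0.29, beside 0.18 for the 1071 tested genes of that length. The 5 factors of 4000 bases and over (eIF4EHP, eIF4G1, eIF4G2, eIF4H1 and eIF5B) had a median of -0.94, beside -0.36 for 1480 genes, of which 28.4% were called lower. Lengths of the called factors were 681 bases for eIF1, 807 for eEF5, 928 for eEF1delta, 1005 for eIF2Balpha, 6565 for eIF4G1 and 9097 for eIF4G2.

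**Figure D4:**
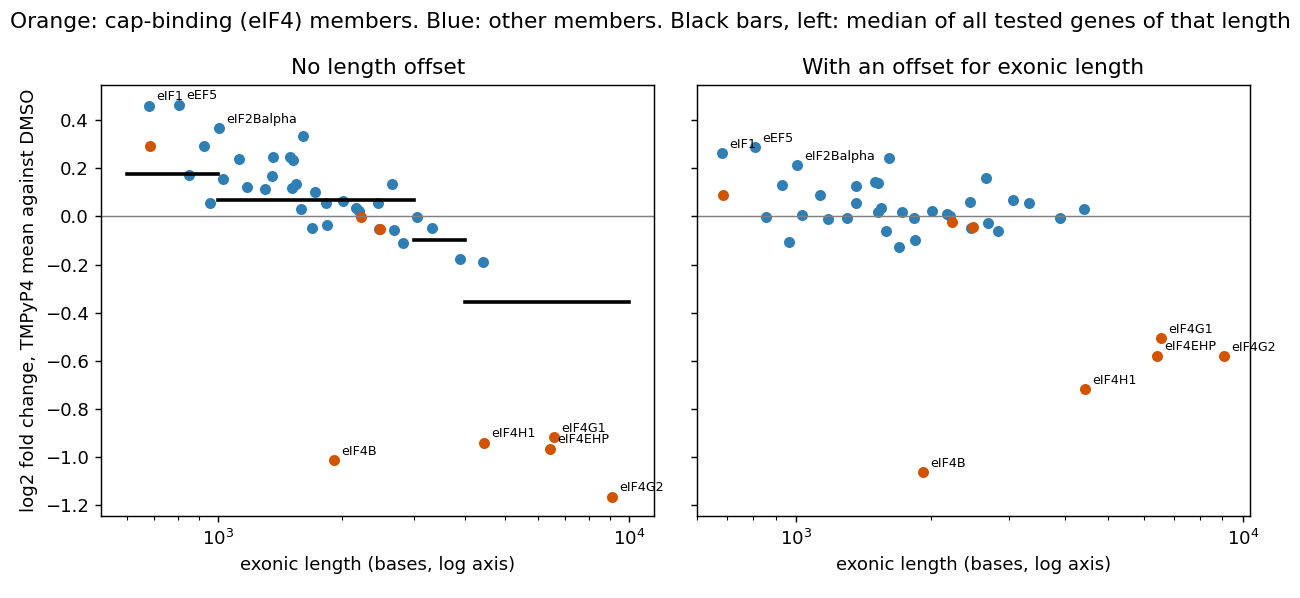
Log2 difference between the mean of the TMPyP4 groups and DMSO against exonic length (log axis) for the 42 tested factors, eIF4 factors in orange and others in blue, without (left) and with (right) a per-library offset for exonic length, and with black bars at the median of all tested genes in 4 length classes. The downward slope on the left, with Spearman correlation -0.857, is flatter on the right at -0.500, where eIF4G1, eIF4G2, eIF4EHP, eIF4H1 and eIF4B remain below -0.50.

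With the offset for length, 0 of the 42 factors were called by edgeR in any of the 4 contrasts with DMSO, while 0.785%, 1.20%, 2.75% and 3.50% of the 7263 genes with a length were called at 25, 50 and 100 µmol/L and in the mean contrast. At an unadjusted p under 0.05 the factors numbered 3, 5, 4 and 6 of 42, beside 12.0%, 16.0%, 17.4% and 17.6% of the genes with a length. DESeq2 was run without the offset and called 2, 4, 2 and 6 factors in the same 4 contrasts, beside 3.23%, 10.3%, 7.41% and 12.3% of the genes it gave an adjusted p. Over all genes the offset left 33 higher and 24 lower at 25 µmol/L, where 39 and 83 were called without it. It left 50 and 37 at 50 µmol/L (124 and 378 without it), 106 and 94 at 100 µmol/L (116 and 263) and 130 and 124 in the mean contrast (220 and 500). The signs of the 6 called factors were kept with the offset. Across the 12 libraries the long eIF4 factors were highest in DMSO replicate 1, which had the steepest length slope, 0.266.

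**Figure D5:**
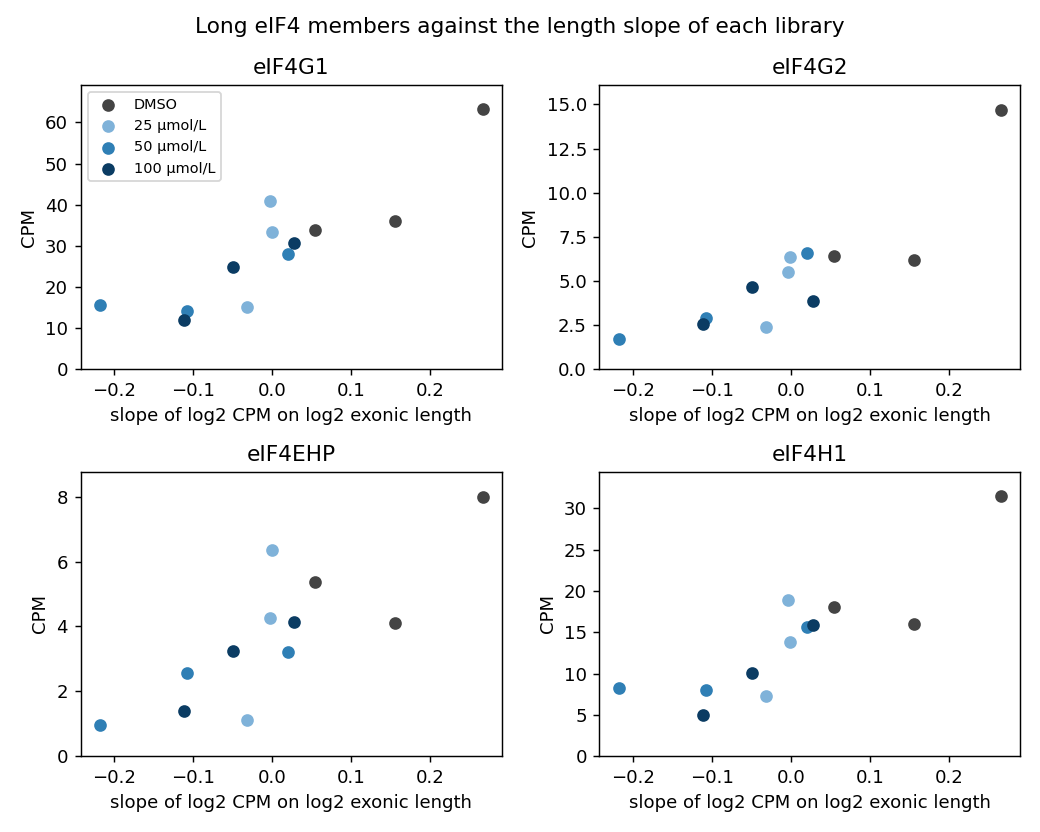
CPM of eIF4G1, eIF4G2, eIF4EHP and eIF4H1 in each of the 12 libraries against the length slope of that library over all tested genes, coloured by group. In all 4 panels DMSO replicate 1 (slope 0.266) stands at the upper right, and 50 µmol/L replicate 2 (slope -0.218) at the far left among the low values.

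The 3 TMPyP4 concentrations could not be told apart in these factors. Between 50 and 25 µmol/L, 100 and 25 µmol/L, and 100 and 50 µmol/L, 0 of 42 passed in edgeR and 0 in DESeq2, beside 0.300%, 0.205% and 0.0409% of all genes in edgeR and 0.587%, 0.355% and 0.145% in DESeq2. At an unadjusted p under 0.05 edgeR gave 5, 0 and 1, beside 10.9%, 5.91% and 6.50% of all genes. The 5 between 50 and 25 µmol/L were eIF2Bdelta at 0.23 (SE 0.105) and the eIF3 subunits eIF3d1 at 0.26 (SE 0.101), eIF3e at 0.32 (SE 0.134), eIF3f1 at 0.28 (SE 0.129) and eIF3g1 at 0.28 (SE 0.124). All 5 were higher at 50 µmol/L, and the lowest adjusted p among them was 0.431. These 5 were named after their values were seen.

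Library by library, most factors varied less than the median tested gene. The ratio of the highest to the lowest CPM over the 12 libraries had a median of 1.47 in the 42 tested factors and 1.7 in all tested genes, given as a description. Factors and genes were not matched for level, and the part of counting noise at low counts in this ratio was not tested. eIF4E1 was the steadiest at 1.16, followed by eIF2gamma at 1.19 and eEF1gamma at 1.22. The widest with counts in every library were eIF4G2 at 8.61, eIF4EHP at 8.21, eIF4H1 at 6.32 and eIF4G1 at 5.22. Of the 42 factors 17 were highest in 50 µmol/L replicate 2, the library with the fewest counts, and 9 in 50 µmol/L replicate 3. Of all libraries, 50 µmol/L replicate 2 also had the lowest scaling factor (0.8795), which raises its CPM values, and the lowest length slope (-0.218). Its share of counts in the factors was the lowest as well (3.379%).

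Genes around the factors in the same pathway were listed with earlier results of these data known, and are given for context. Among 16 tested regulators of initiation, 4 were lower and 1 higher in the mean contrast, where 6.82% of all genes were lower and 3.00% higher. The median of the regulators was -0.32, beside 0.02 over all tested genes. All 4 lower regulators have over 4000 exonic bases. Of all tested genes of 4000 bases and over, 28.4% were called lower, with a median of -0.36. Lk6, the kinase of eIF4E, had 128, 78.6 and 82.2 CPM in DMSO, 35.8, 51.3 and 56.1 CPM at 25 µmol/L, 42.9, 41.7 and 35.3 CPM at 50 µmol/L and 50.0, 47.3 and 34.2 CPM at 100 µmol/L. No treated library reached a DMSO library. Its mean difference was -1.14 (SE 0.152, edgeR adjusted p = 0.000378) and it stayed called with the length offset at -0.70 (adjusted p = 0.00404). NAT1, a relative of eIF4G, was at -0.76 (SE 0.159, adjusted p = 0.0075) and at -0.42 (adjusted p = 0.0375) with the offset. The kinase gene S6k at -0.45 and larp, a partner of poly(A)-binding protein, at -0.74 were called without the offset and not with it.

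The regulator called higher by edgeR without the offset was crc, the fly counterpart of the stress transcription factor ATF4. crc had 87.8, 67.2 and 77.1 CPM in DMSO, 93.6, 86.9 and 95.9 CPM at 25 µmol/L, 97.6, 109.6 and 90.2 CPM at 50 µmol/L and 114, 97.3 and 117 CPM at 100 µmol/L. Its libraries overlapped DMSO at 25 µmol/L and not at 50 or 100 µmol/L, and the difference was 0.50 (SE 0.116, edgeR adjusted p = 0.0206) at 100 µmol/L. The mean difference was 0.37 (adjusted p = 0.0236), or 0.49 (adjusted p = 0.00873) with the offset. With the offset PEK was called higher as well, at 0.36 (adjusted p = 0.047) in the mean contrast, against 0.10 (adjusted p = 0.571) without it. Thor, the fly 4E-BP that sequesters eIF4E, had a mean difference of -0.41 (SE 0.213, adjusted p = 0.247). DESeq2 called 3, 4, 4 and 5 of the 16 regulators at 25, 50 and 100 µmol/L and in the mean contrast. Of all genes it called 3.23%, 10.3%, 7.41% and 12.3%. Its calls at 25 µmol/L were Lk6, larp and kra, the last at 0.54 in edgeR (adjusted p = 0.0888).

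Of 6 tested genes for modification of eEF2 or of eEF5, edgeR called 1, Dph1, an enzyme of the diphthamide pathway that modifies eEF2, at 100 µmol/L and in the mean contrast, where 5.17% and 9.83% of all genes were called. DESeq2 called Dph1 at 50 and 100 µmol/L and both Dph1 and Dph4 in the mean contrast. It had 80.1, 84.5 and 99.8 CPM at 100 µmol/L, against 59.8, 52.9 and 49.1 CPM in DMSO, a difference of 0.71 (SE 0.121, edgeR adjusted p = 0.00422), or 0.64 (adjusted p = 0.00794) with the length offset. The enzymes that make the hypusine of eEF5, Dhps and nero, had mean differences of 0.34 and 0.23 and were not called by edgeR. Of 7 tested genes for termination, recycling and rescue and of 8 mitochondrial translation factors, 0 were called by edgeR or by DESeq2 in any contrast with DMSO, with mean-contrast values of -0.36 to 0.22 and -0.18 to 0.29. In the mean contrast 2 of those 7 and 0 of those 8 had an unadjusted p under 0.05 in edgeR, beside 25.5% of all genes. Fits that leave out a library were run for the eIF and eEF genes and not for these neighbours.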

How the data were processed

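The authors deposited 1 table of raw counts (reads per FlyBase gene, whole numbers) for all 12 libraries. FastQC 0.11.8, MultiQC 0.9, HISAT2 2.0.5, SAMtools 1.7, HTSeq 0.9.1 and the build dm6 are named per the submitters' processing notes, while the annotation and any use of strand in counting are not given in the sources used here. The last 5 entries of the table, which name no gene, were left out (no feature 0.783 to 1.04%, ambiguous 1.87 to 2.71% of counts). Columns matched to no sample numbered 0. BDGP6.54 supplied symbols, positions and exonic lengths, with 17358 of 17494 identifiers matched, and may differ from the authors' annotation.

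filterByExpr (minimum count 10, minimum total count 15), TMM scaling and edgeR 4.0.16 (glmQLFit, glmQLFTest, limma 3.58.1) in R 4.3.3 gave 1 fit, in which all 12 libraries entered and group was the sole factor. Its 7 contrasts were two-sided and adjusted by Benjamini-Hochberg over 7328 genes, with a threshold of 0.05. SE is the absolute log2 fold change over the square root of F, intervals are 95%, and CPM uses TMM-scaled library sizes. Alternatives were other size factors, no filter, DESeq2 1.42.0, a lowess offset for exonic length, blocks, fits of the compared groups only and fits that leave out each library. The procedure was also run on simulated counts that held no length trend and no library effect, so that run does not bear on the length slope. Replicates differed beyond counting noise in all 12 pairs (chi-square 4.06 to 24.6 per gene), so none was merged. PCR reads are not independent molecules, so floors cover counting error only.

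The factors and lists were chosen with earlier results of these data known. Named were the called factors, fixed anchors of each complex, the 2 highest and 2 lowest at each concentration, and by range the untested ones, while eIF3e, eIF3g1, eIF3h, eIF3j, eIF3k, eIF4E6 and the beta, gamma and delta subunits of eIF2B were named after their values were seen.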

Additional observations from a re-analysis of the deposited data

How the results depend on the processing

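Counts of called factors and genes moved by more than 1.5 times under several settings, and the causes were not tested except where the setting's own construction shows it. At 25 µmol/L RLE or upper-quartile factors gave 0 called factors, as did a fit of the compared groups only. Without the filter 4, 8 and 5 factors were called at 25, 50 and 100 µmol/L (2, 4 and 3 of them lower), with 464, 1058 and 777 genes, and between concentrations 207 (50 against 25), 70 (100 against 25) and 35 (100 against 50) genes. DESeq2 gave 2 factors at 25 and 2 at 100 µmol/L, with 232 genes at 25 and 756 at 50 µmol/L, and 43, 24 and 9 between concentrations. A fit of the compared groups only gave 1 factor at 50 µmol/L (eIF4G1, lower, with eIF1, eIF2Balpha and eEF5 not called), 2 at 100 µmol/L, 218 genes at 50 µmol/L and 25 between 100 and 25 µmol/L. For the mean contrast that fit is the same as that of all groups. The length offset gave 0 factors at 25, 50 and 100 µmol/L and in the mean contrast, with 57, 87, 200 and 254 genes of the 122, 502, 379 and 720 called without it.

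The labels do not say whether a replicate number is shared between groups. Of 18 same-number pairs 7 correlated above 0.1 (range -0.365 to 0.44), and 6 of 12 libraries correlated best with their own number. Since these correlations go both ways, they do not settle whether the numbers pair the libraries. With the replicate block 2 factors were called at 100 µmol/L, and eIF4G1 (adjusted p = 0.0546) and eIF4G2 (0.0621) were not called in the mean contrast. A block for runs of the leading number in the sample titles, whose meaning is not stated, gave 0 factors at each concentration and in the mean contrast, with 12, 0, 1 and 89 genes, and 1, 0 and 1 between 50 and 25, 100 and 25, and 100 and 50 µmol/L.

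Leaving out 1 library gave 0 to 3 factors at 25, 0 to 11 at 50, 0 to 1 at 100 µmol/L and 0 to 8 in the mean contrast, and 0 to 0 between concentrations. Genes ran 6 to 200 at 25, 50 to 1233 at 50, 89 to 455 at 100 µmol/L and 174 to 1081 in the mean contrast, and 10 to 64 (50 against 25), 1 to 23 (100 against 25) and 1 to 5 (100 against 50) between concentrations. Against DMSO, the lowest counts came without DMSO replicates 1 or 3 (factors, mean contrast), 25 µmol/L replicate 2, 50 µmol/L replicate 2, 100 µmol/L replicate 3 and DMSO replicate 1 (genes), and the highest without 25 µmol/L replicate 1, 50 µmol/L replicate 1 and DMSO replicate 2. Between 100 and 50 µmol/L the highest count of genes came without 50 µmol/L replicate 2. The smallest library held 4669194 counts, and the median standard error of the mean contrast was 0.293 for the tested cap-binding factors and 0.0979 for all 42.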
